A study of Mus musculus with 36 samples.

Results

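Collagens and other extracellular matrix genes were followed in the distal colon of mice given small interfering RNAs (siRNAs) against Tnf in a colitis model. The list holds 46 genes: collagens, laminins, nidogens, matrix glycoproteins, small proteoglycans, elastic fibre genes, the enzymes and the chaperone that process and cross-link collagen, metalloproteinase inhibitors, and the fibroblast receptor Pdgfra. A gene was read from the probe set (a group of short probes that together report 1 transcript) annotated to that gene alone. In this way 44 of the 46 genes were measured, of 19939 genes that such probe sets name on the array, and each had 1 probe set. Fbn1 was named by no single-gene probe set, and Loxl2 was named only on a probe set shared with other genes, so neither has a value.

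The 36 arrays, 1 per sample, fall into 5 groups by their titles. TNFa-OMe-P siRNA-C (8 arrays, siRNA-C below) carried O-methyl-propanediol nucleotides, TNFa-OMe siRNA-B (6 arrays, siRNA-B) carried O-methyl nucleotides, and TNFa siRNA-A (6 arrays, siRNA-A) is described with no modification, all directed at the mRNA of the cytokine Tnf. SiRNA-scrambled (7 arrays, scrambled below) was a scrambled sequence, and Control (9 arrays) is the remaining group. Dosing was intrarectal, and the sources used here do not give the dose, strain, sex or age. The labels give 5% dextran sulfate sodium (DSS), which injures the colon lining and is used to cause colitis, for every array including Control. The design text of the series lists only siRNA-dosed mice, so what Control received is not settled, and Control is used only as a name. Each sample has its own colon length, weight and enzyme activity in the labels, but nothing states cages or litters, so p-values measure the spread between these samples.

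The extracellular matrix is the protein scaffold between cells. Fibrillar collagens bear load in the submucosa, a sheet of type IV collagen, laminins and nidogens underlies epithelium, vessels and muscle, and glycoproteins such as fibronectin and tenascin-C link cells to fibres and are laid down during wound repair. In the gut most of this matrix is made by fibroblasts and smooth muscle cells, with endothelial cells adding basement membrane, and in chronic colitis it can build up as fibrosis.

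Promoters are shown for 4 members whose values are set side by side below, from RefSeq on build GRCm38.p6, each from 250 bases before to 50 after a gene start. RefSeq promoters were matched for 29 of the 44 measured genes. Col4a1 and Col4a2 encode the chains of the type IV collagen molecule and lie head to head on chromosome 8, so their 2 windows share 78 bases (chr8:11312777-11312854). Those shared bases are in capitals in the first 2 sequences. In Tnc (1 of its 2 windows) and Col3a1, capitals mark each match, on either strand, to 5 motifs. These were the TATA box TATAAA, the letters CCAAT of a CCAAT box, the GC box GGGCGG, the AP-1 site TGANTCA and the TEAD site GGAATG.
Col4a1 (chr8:11312777-11313076, minus strand): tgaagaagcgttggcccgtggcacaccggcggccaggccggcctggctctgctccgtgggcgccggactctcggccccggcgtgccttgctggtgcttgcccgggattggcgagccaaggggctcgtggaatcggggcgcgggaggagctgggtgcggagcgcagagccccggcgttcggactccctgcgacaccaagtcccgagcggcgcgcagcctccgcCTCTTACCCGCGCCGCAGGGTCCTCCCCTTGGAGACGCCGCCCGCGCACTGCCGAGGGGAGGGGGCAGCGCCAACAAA
Col4a2 (chr8:11312555-11312854, plus strand): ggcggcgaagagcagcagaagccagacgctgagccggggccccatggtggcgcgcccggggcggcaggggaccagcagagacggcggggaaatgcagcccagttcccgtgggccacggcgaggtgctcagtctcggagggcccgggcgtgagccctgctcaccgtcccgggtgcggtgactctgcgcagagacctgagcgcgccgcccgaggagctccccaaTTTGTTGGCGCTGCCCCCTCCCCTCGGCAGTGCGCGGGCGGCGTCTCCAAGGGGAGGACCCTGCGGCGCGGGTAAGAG
Tnc (chr4:64046887-64047186, minus strand): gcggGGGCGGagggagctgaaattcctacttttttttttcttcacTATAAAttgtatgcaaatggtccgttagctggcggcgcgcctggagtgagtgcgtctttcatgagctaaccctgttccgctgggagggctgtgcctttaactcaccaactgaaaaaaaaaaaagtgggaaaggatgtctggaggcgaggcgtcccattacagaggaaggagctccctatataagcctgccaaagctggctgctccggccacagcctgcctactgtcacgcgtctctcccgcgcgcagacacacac
Col3a1 (chr1:45311288-45311587, plus strand): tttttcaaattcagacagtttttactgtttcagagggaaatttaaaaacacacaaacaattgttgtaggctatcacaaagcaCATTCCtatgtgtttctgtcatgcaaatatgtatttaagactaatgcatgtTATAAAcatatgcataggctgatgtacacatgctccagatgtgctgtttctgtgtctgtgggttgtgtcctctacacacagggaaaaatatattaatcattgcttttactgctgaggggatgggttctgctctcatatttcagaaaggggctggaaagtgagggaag
The Tnc window holds TATAAA and GGGCGG, and the Col3a1 window holds TATAAA and, read on the other strand, GGAATG. The TATA box was in a window of 4 of the 29 genes (Col3a1, Postn, Thbs2 and Tnc) and in 13.6% of 32851 promoters. GGGCGG was in a window of 21 of the 29 genes and 35.7% of promoters, CCAAT in 12 genes and 37.4%, GGAATG in 4 genes and 14.7%, and TGANTCA in 1 gene, Col6a1, and 7.8%. The shares over all promoters count windows, and these 29 genes have 35 windows. Of the 35, 5 held the TATA box, 23 the GC box, 12 the CCAAT letters, 4 the TEAD site and 1 the AP-1 site. No match overlaps another in the Tnc and Col3a1 windows, and a match describes letters only.

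The deposited values are log2 signals from 4.95 to 14.1, and differences below are in log2 units unless a fold is given. Smooth muscle markers averaged 11.0 to 12.2 and epithelial markers 11.7 to 12.3 on every array, as the colon label implies. On 8 arrays (2 siRNA-C, 1 siRNA-A, 1 scrambled and 4 Control) the values spread less than on the others, with an SD over probe sets under 1.7 where the range over arrays was 1.55 to 1.89. These are called narrow arrays below. On 8 arrays (3 siRNA-C, 4 siRNA-B, 1 siRNA-A), 2 of them narrow, markers of squamous epithelium, which lines the anus and not the colon, averaged 8 or more. These are called squamous arrays. Tnf itself read 8.42, 8.70 and 8.94 log2 (lowest, median and highest) on siRNA-C arrays, 8.41, 8.80 and 9.09 on siRNA-B, 8.72, 9.17 and 9.42 on siRNA-A and 8.36, 8.67 and 9.47 on scrambled arrays, against 7.60, 7.91 and 8.68 on Control arrays. It was higher in all 4 siRNA groups than in Control (0.74, 0.84, 1.15 and 0.96), and against scrambled it differed by -0.23, -0.13 and 0.19 in siRNA-C, siRNA-B and siRNA-A (limma adjusted p of 0.9998 or above).

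The first question was how matrix genes in each siRNA-dosed group stood against Control. Matrix genes rose in all 4 groups and no member fell: 31 of 44 rose in siRNA-C, 34 in siRNA-B, 28 in siRNA-A and 24 in scrambled (limma, adjusted p under 0.05 over all probe sets). Over all probe sets the share called was 15.9, 14.8, 13.8 and 11.7%, and the share called upward was 9.35, 9.01, 9.09 and 7.27%. The median member difference was 0.49, 0.57, 0.55 and 0.44, beside -0.03, -0.05, -0.04 and -0.03 over all probe sets. Where 4 values follow each other below with no group named, they are siRNA-C, siRNA-B, siRNA-A and scrambled in that order, each over Control. The 4 comparisons share the Control arrays, so their values are set side by side and are not independent of each other. In bulk tissue, more cells of a type and more RNA per cell cannot be told apart. Colon length as labelled was 7.2 to 8.1 in Control and 5.2 to 7.1 in dosed samples. Activity of the neutrophil enzyme myeloperoxidase was 0.009 to 0.088 U per mg in Control and 0.031 to 1.35 in dosed samples. Dosing and the severity of colitis therefore cannot be told apart in comparisons with Control.

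Counted by gene, 24 members rose in all 4 comparisons, 3 in 3, 5 in 2, 2 in 1 and 10 in none. The arrays of a group lay wholly above the Control arrays for 9 members in siRNA-C, 24 in siRNA-B, 7 in siRNA-A and 6 in scrambled, where 2.5, 4.56, 2.29 and 1.82% of all probe sets did so. Tnc, Plod2 and Pdgfra did so in all 4 groups. The members are mostly bright, with a median at percentile 82.6 of all probe sets by mean signal, and Lox is the one member among the dimmest 40%.

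**Figure D1:**
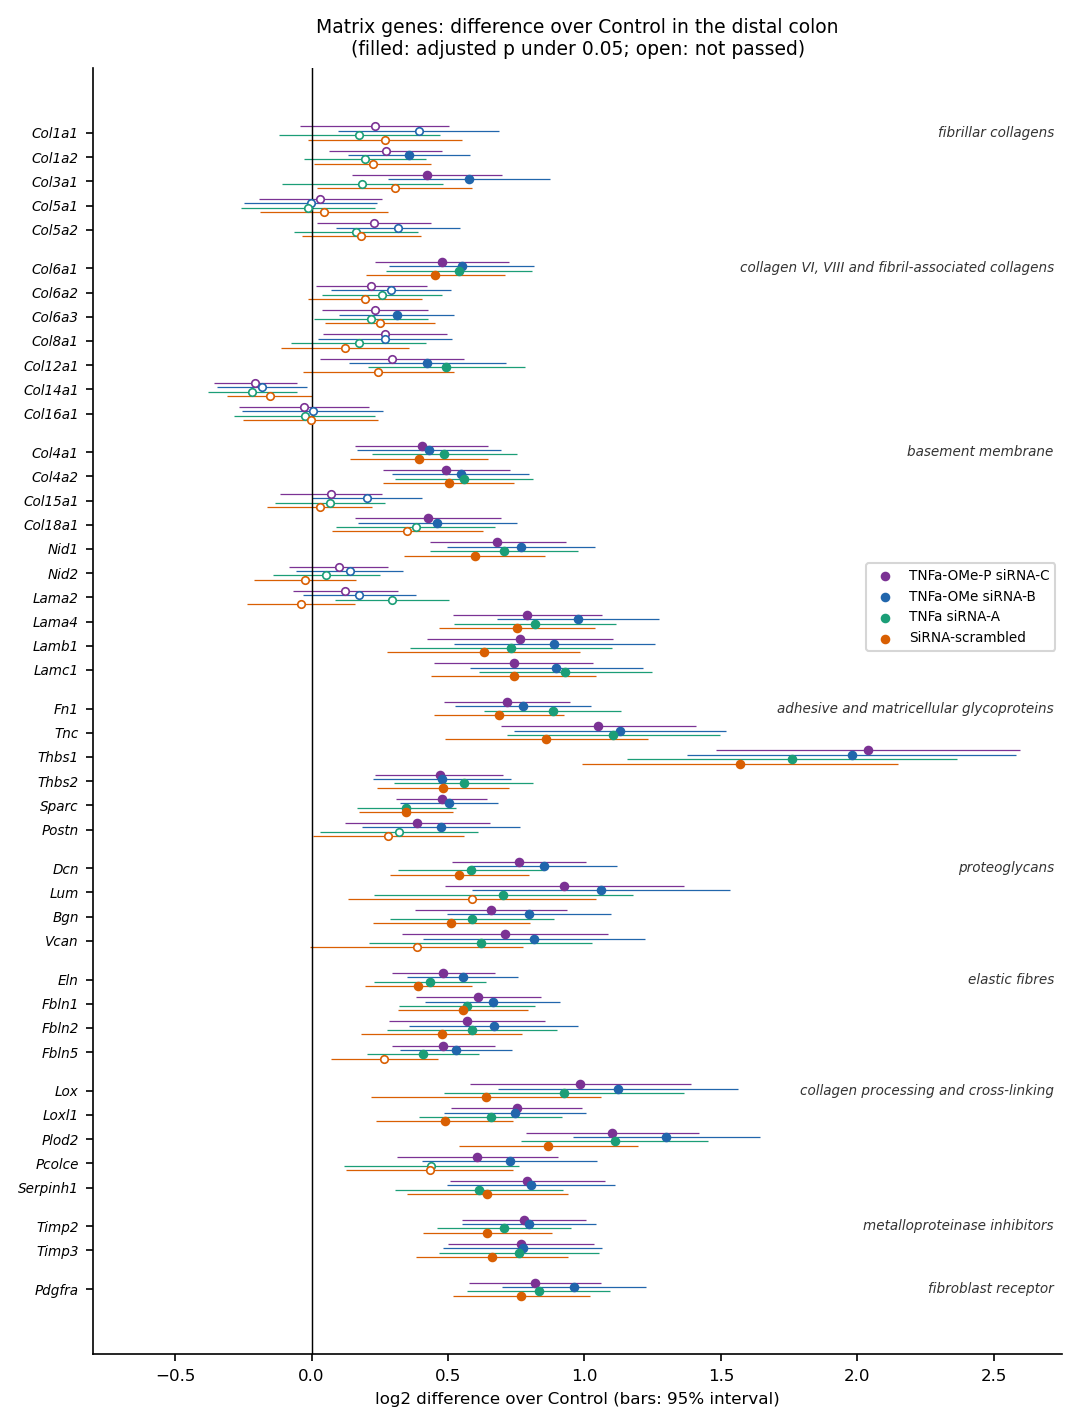
Difference from Control in log2 units with its 95% interval for each of the 44 measured matrix genes, grouped by role, for siRNA-C, siRNA-B, siRNA-A and scrambled; filled points passed the adjusted p of 0.05 and open points did not. Thbs1 lies farthest from 0 in all 4 groups, and no point below 0 is filled.

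Of 5 fibrillar collagens, the rope-like collagens of load-bearing matrix, 1 rose in siRNA-C, 2 in siRNA-B and none in siRNA-A or scrambled. Over all probe sets 9.35, 9.01, 9.09 and 7.27% were called upward. Median differences of the 5 were 0.23, 0.36, 0.17 and 0.22, beside -0.03, -0.05, -0.04 and -0.03 over all probe sets. Col1a1, a chain of type I collagen, read 10.72, 11.30 and 11.59 log2 (lowest, median and highest) on siRNA-C arrays, 11.20, 11.40 and 11.81 on siRNA-B, 10.73, 11.30 and 11.46 on siRNA-A and 10.94, 11.42 and 11.69 on scrambled arrays, against 10.67, 11.10 and 11.43 on Control arrays. The 5 ranges overlap. Its differences were 0.23 ± 0.13, 0.39 ± 0.14, 0.17 ± 0.14 and 0.27 ± 0.14 (SE), with limma adjusted p of 0.319, 0.066, 0.479 and 0.277 in the same order, so none passed. Col1a2, the partner chain, rose in siRNA-B and missed the threshold in the other 3, with differences of 0.27, 0.36, 0.20 and 0.22.

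Col3a1, the chain of type III collagen found in pliable tissue, read 9.97, 10.52 and 10.96 log2 (lowest, median and highest) on siRNA-C arrays, 10.29, 10.69 and 11.01 on siRNA-B, 9.80, 10.31 and 10.48 on siRNA-A and 10.05, 10.39 and 10.84 on scrambled arrays, against 9.70, 10.05 and 10.41 on Control arrays. All groups overlap Control. Its differences were 0.42 ± 0.13, 0.58 ± 0.14, 0.19 ± 0.15 and 0.30 ± 0.14, and it rose in siRNA-C and siRNA-B while missing the threshold in siRNA-A and scrambled. The type V chains, which start and limit the width of collagen fibrils, did not pass anywhere. Col5a1 differed by 0.03, 0.00, -0.01 and 0.05, and Col5a2 by 0.23, 0.32, 0.16 and 0.18.

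Among 7 members of type VI, type VIII and fibril-associated collagens, which decorate or connect the thicker fibres, 1, 3, 2 and 1 rose in siRNA-C, siRNA-B, siRNA-A and scrambled (medians 0.23, 0.29, 0.22 and 0.20). Over all probe sets 9.35, 9.01, 9.09 and 7.27% were called upward, so counts of 1 or 2 of 7 are not read as results for the list. Col6a1, a chain of the beaded filaments near cell surfaces, had medians of 10.50, 10.57, 10.61 and 10.41 log2 on siRNA-C, siRNA-B, siRNA-A and scrambled arrays, against 9.98 on Control arrays, and rose in all 4 by 0.48, 0.55, 0.54 and 0.45. Col6a3, a longer chain of the same filaments, rose in siRNA-B, by 0.31, with siRNA-B arrays wholly above Control, and missed the threshold elsewhere. Col12a1, a fibril-associated collagen, rose in siRNA-A and siRNA-B. Col6a2, Col8a1, Col14a1 and Col16a1 passed in none.

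Col14a1, a fibril-associated collagen of mature connective tissue, was the member with the lowest estimates. It read 9.05, 9.24 and 9.54 log2 (lowest, median and highest) on siRNA-C arrays, 9.08, 9.36 and 9.48 on siRNA-B, 9.09, 9.30 and 9.47 on siRNA-A and 9.20, 9.31 and 9.58 on scrambled arrays, against 9.34, 9.51 and 9.69 on Control arrays. Dosed arrays lie toward the lower side, and the ranges overlap. Its differences were -0.21, -0.18, -0.22 and -0.15 and missed the threshold (limma adjusted p 0.057, 0.153, 0.0746 and 0.259). Under 10 other settings that keep all 36 arrays, it was called lower in 6 for siRNA-C, 1 for siRNA-B, 3 for siRNA-A and 1 for scrambled. Without the 8 narrow arrays the differences were -0.24, -0.23, -0.28 and -0.24 and it was called lower in all 4 (limma adjusted p 0.0248, 0.0240, 0.0247 and 0.0240), the one member called in that direction under that setting. The share of all probe sets called there, in either direction, was 48, 54, 20.9 and 50%.

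Among basement membrane genes, 7, 7, 6 and 6 of 10 rose in siRNA-C, siRNA-B, siRNA-A and scrambled (medians 0.46, 0.50, 0.52 and 0.45). Laminin chains had the largest differences among them. Lama4, the alpha chain of endothelial and muscle laminin, read 9.51, 9.96 and 10.54 log2 (lowest, median and highest) on siRNA-C arrays, 10.01, 10.15 and 10.33 on siRNA-B, 9.78, 10.09 and 10.17 on siRNA-A and 9.62, 9.85 and 10.53 on scrambled arrays, against 8.72, 9.30 and 9.70 on Control arrays. The siRNA-B and siRNA-A arrays lie wholly above Control, and the other groups meet it at its top. Lama4 rose by 0.79 ± 0.14, 0.98 ± 0.15, 0.82 ± 0.15 and 0.75 ± 0.14 (limma adjusted p 8.22e-06 to 2.45e-04).

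Lamc1, the gamma chain shared by most laminins, had medians of 10.17, 10.45, 10.49 and 10.16 log2 on siRNA-C, siRNA-B, siRNA-A and scrambled arrays, against 9.60 on Control arrays, and rose by 0.74, 0.90, 0.93 and 0.74. Lamb1, a beta chain, had medians of 10.11, 10.25, 10.14 and 9.90 log2 on siRNA-C, siRNA-B, siRNA-A and scrambled arrays, against 9.46 on Control arrays, and rose by 0.76, 0.89, 0.73 and 0.63. Nid1, which bridges laminin and type IV collagen, rose by 0.68, 0.77, 0.70 and 0.60. Lama2, the alpha chain of muscle basement membrane, Nid2 and Col15a1 passed in no comparison.

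Type IV collagen, the network former of basement membranes, is read by the gene pair with the shared promoter window printed above. Col4a1 read 9.08, 9.45 and 9.84 log2 (lowest, median and highest) on siRNA-C arrays, 9.25, 9.46 and 9.75 on siRNA-B, 9.21, 9.37 and 10.10 on siRNA-A and 9.23, 9.31 and 9.75 on scrambled arrays, against 8.66, 9.03 and 9.54 on Control arrays. Col4a2 read 9.24, 9.75 and 10.17 log2 (lowest, median and highest) on siRNA-C arrays, 9.60, 9.69 and 10.11 on siRNA-B, 9.52, 9.69 and 10.24 on siRNA-A and 9.48, 9.59 and 10.13 on scrambled arrays, against 8.96, 9.17 and 9.45 on Control arrays. Col4a2 arrays of siRNA-B, siRNA-A and scrambled lie wholly above Control, while Col4a1 overlaps Control in every group. Col4a1 rose by 0.40, 0.43, 0.49 and 0.39 and Col4a2 by 0.49, 0.55, 0.56 and 0.50, the same direction in all 4 comparisons. Col18a1, the source of the fragment endostatin, rose in siRNA-C and siRNA-B (0.43, 0.46, 0.38 and 0.35).

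The member with the largest difference in every comparison, Thbs1, is among the matrix glycoproteins that cells lay down during repair. Of these 6 genes, 6 rose in siRNA-C and siRNA-B and 5 in siRNA-A and scrambled, with medians of 0.60, 0.64, 0.72 and 0.58. Thbs1 encodes thrombospondin-1, which binds cells and activates latent TGF-beta, and lies at chr2:118111876-118127133. It read 10.56, 11.86 and 12.39 log2 (lowest, median and highest) on siRNA-C arrays, 11.20, 11.79 and 11.98 on siRNA-B, 10.03, 11.69 and 12.80 on siRNA-A and 10.50, 11.25 and 11.98 on scrambled arrays, against 9.26, 9.76 and 10.03 on Control arrays. Dosed and Control arrays do not overlap except in siRNA-A. Thbs1 rose 4.11, 3.94, 3.39 and 2.97 fold (2.04 ± 0.27, 1.98 ± 0.30, 1.76 ± 0.30 and 1.57 ± 0.28 log2, limma adjusted p 1.38e-06 to 1.74e-04).

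Tnc, tenascin-C, a glycoprotein of healing wounds at chr4:63959785-64047015, read 9.74, 10.32 and 11.24 log2 (lowest, median and highest) on siRNA-C arrays, 10.28, 10.62 and 10.80 on siRNA-B, 9.73, 10.50 and 11.18 on siRNA-A and 9.82, 10.07 and 10.98 on scrambled arrays, against 9.16, 9.38 and 9.60 on Control arrays. Every dosed array lies above every Control array. Tnc rose by 1.05 ± 0.18, 1.13 ± 0.19, 1.11 ± 0.19 and 0.86 ± 0.18 (limma adjusted p 3.84e-05 to 0.00117). Fn1, fibronectin, the early scaffold on which collagen is assembled, read 11.81, 12.00 and 12.36 log2 (lowest, median and highest) on siRNA-C arrays, 11.90, 12.17 and 12.19 on siRNA-B, 11.99, 12.18 and 12.53 on siRNA-A and 11.65, 12.10 and 12.34 on scrambled arrays, against 10.64, 11.39 and 11.80 on Control arrays. Its siRNA-C, siRNA-B and siRNA-A arrays lie above Control and the scrambled arrays overlap it. Fn1 rose by 0.72, 0.77, 0.88 and 0.69.

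Thbs2, a relative of thrombospondin-1 that restrains vessel growth, had medians of 8.96, 8.96, 8.97 and 8.93 log2 on siRNA-C, siRNA-B, siRNA-A and scrambled arrays, against 8.42 on Control arrays, and rose by 0.47, 0.48, 0.56 and 0.48. Sparc, a collagen-binding protein that aids fibril assembly, had medians of 13.05, 13.11, 12.93 and 12.92 log2 on siRNA-C, siRNA-B, siRNA-A and scrambled arrays, against 12.55 on Control arrays, and rose by 0.48, 0.50, 0.35 and 0.35. Postn, periostin, which helps cross-link collagen, rose in siRNA-C and siRNA-B and missed the threshold in the other 2 (0.39, 0.47, 0.32 and 0.28).

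**Figure D2:**
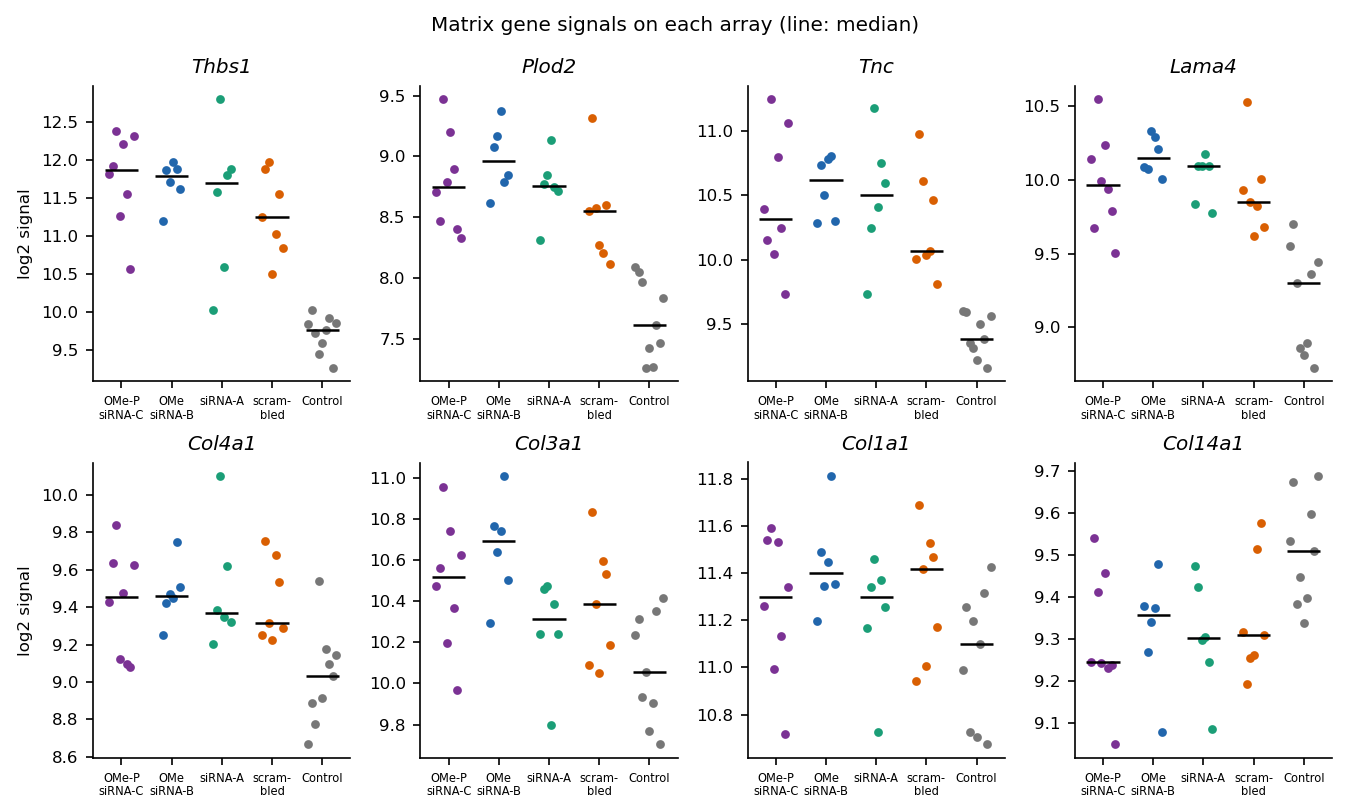
Log2 signal on each array for Thbs1, Plod2, Tnc, Lama4, Col4a1, Col3a1, Col1a1 and Col14a1, with a column for siRNA-C, siRNA-B, siRNA-A, scrambled and Control in each panel; points are arrays and lines are group medians. Every dosed array lies above every Control array for Plod2 and Tnc, while the Col1a1 arrays of all 5 groups overlap.

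The small and large proteoglycans, sugar-bearing proteins that space and hydrate the fibres, rose in 4 of 4 members in siRNA-C, siRNA-B and siRNA-A and in 2 of 4 in scrambled (medians 0.74, 0.83, 0.60 and 0.53). Dcn, decorin, which coats collagen fibrils and binds TGF-beta, had medians of 12.61, 12.79, 12.41 and 12.39 log2 on siRNA-C, siRNA-B, siRNA-A and scrambled arrays, against 11.97 on Control arrays, and rose by 0.76, 0.85, 0.58 and 0.54. Bgn, biglycan, a close relative, rose by 0.66, 0.80, 0.59 and 0.51. Lum, lumican, and Vcan, versican, differed by 0.93, 1.06, 0.70 and 0.59 and 0.71, 0.81, 0.62 and 0.39. Scrambled missed the threshold for both, with limma adjusted p of 0.0900 for Lum and 0.254 for Vcan.

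All 4 elastic fibre genes rose in siRNA-C, siRNA-B and siRNA-A, and 3 of 4 in scrambled (medians 0.53, 0.61, 0.50 and 0.43). Eln, elastin, the recoil protein of vessel and gut walls, had medians of 10.14, 10.12, 9.98 and 9.91 log2 on siRNA-C, siRNA-B, siRNA-A and scrambled arrays, against 9.59 on Control arrays, and rose by 0.48, 0.55, 0.43 and 0.39. Fbln1 and Fbln2, fibulins that bind elastin, fibronectin and basement membrane, rose by 0.61, 0.66, 0.57 and 0.55 and by 0.57, 0.67, 0.59 and 0.48. Fbln5, needed to assemble elastic fibres, differed by 0.48, 0.53, 0.41 and 0.27 and missed the threshold in scrambled.

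Genes that process and cross-link collagen rose in 5 of 5 members in siRNA-C and siRNA-B and 4 of 5 in siRNA-A and scrambled (medians 0.79, 0.80, 0.66 and 0.64). Plod2, the lysyl hydroxylase that favours stable cross-links, at chr9:92539636-92608428, read 8.33, 8.75 and 9.47 log2 (lowest, median and highest) on siRNA-C arrays, 8.62, 8.96 and 9.38 on siRNA-B, 8.31, 8.76 and 9.14 on siRNA-A and 8.12, 8.55 and 9.32 on scrambled arrays, against 7.26, 7.62 and 8.09 on Control arrays. No dosed array overlaps Control. Plod2 rose by 1.10 ± 0.16, 1.30 ± 0.17, 1.11 ± 0.17 and 0.87 ± 0.16 (limma adjusted p 8.61e-07 to 2.47e-04).

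Lox, lysyl oxidase, which starts cross-links between collagen chains, read 7.07, 7.52 and 8.68 log2 (lowest, median and highest) on siRNA-C arrays, 7.24, 8.03 and 8.29 on siRNA-B, 6.70, 7.18 and 9.08 on siRNA-A and 6.77, 7.18 and 8.02 on scrambled arrays, against 6.40, 6.70 and 6.78 on Control arrays. The siRNA-C and siRNA-B arrays lie wholly above Control. Lox rose by 0.98, 1.12, 0.92 and 0.64. Loxl1, the relative that acts on elastin, had medians of 10.08, 10.12, 9.92 and 9.73 log2 on siRNA-C, siRNA-B, siRNA-A and scrambled arrays, against 9.28 on Control arrays, and rose by 0.75, 0.75, 0.66 and 0.49. Serpinh1, the collagen chaperone of the endoplasmic reticulum, rose by 0.79, 0.80, 0.61 and 0.64, and Pcolce, which speeds procollagen trimming, rose in siRNA-C and siRNA-B.

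Both metalloproteinase inhibitors rose in all 4 comparisons. Timp2 had medians of 11.56, 11.56, 11.53 and 11.41 log2 on siRNA-C, siRNA-B, siRNA-A and scrambled arrays, against 10.99 on Control arrays, and rose by 0.78, 0.80, 0.70 and 0.64. Timp3, which stays bound to the matrix, had medians of 11.54, 11.58, 11.66 and 11.49 log2 on siRNA-C, siRNA-B, siRNA-A and scrambled arrays, against 11.01 on Control arrays, and rose by 0.77, 0.77, 0.76 and 0.66. Pdgfra, the PDGF receptor that marks gut fibroblasts, at chr5:75151322-75198206, read 9.98, 10.59 and 10.96 log2 (lowest, median and highest) on siRNA-C arrays, 10.48, 10.67 and 10.79 on siRNA-B, 10.21, 10.56 and 10.96 on siRNA-A and 10.13, 10.43 and 10.91 on scrambled arrays, against 9.41, 9.63 and 9.97 on Control arrays. Every dosed array exceeds every Control array, and Pdgfra rose by 0.82 ± 0.12, 0.96 ± 0.13, 0.83 ± 0.13 and 0.77 ± 0.12 (limma adjusted p 1.50e-06 to 3.50e-05).

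Some single arrays, array sets and batches moved these counts. Without the 8 narrow arrays, 24 members rose and 1 fell in siRNA-C, 35 and 1 in siRNA-B, 17 and 1 in siRNA-A and 20 and 1 in scrambled, and 16 of the 24 genes called in all 4 were still called in all 4. Counts under that setting stand against the higher background given with Col14a1, 48, 54, 20.9 and 50% of all probe sets. In scrambled the share of members called was slightly below that background, and in siRNA-C it was not far above. In siRNA-B and siRNA-A it stayed higher than the background. The median member difference there was 0.38, 0.42, 0.32 and 0.25, beside 0.05, 0.06, 0.04 and 0.07 over all probe sets. Without the 8 squamous arrays, a setting chosen after seeing the data, 21, 5, 20 and 23 members were called in siRNA-C, siRNA-B, siRNA-A and scrambled, and Eln, Pdgfra, Plod2, Thbs1 and Timp2 were called in all 4. Only 2 siRNA-B arrays remain there, and the median differences were 0.46, 0.47, 0.49 and 0.44. The share of all probe sets called there was 9.14, 3.78, 10.1 and 9.86%. Within hybridization batch 1 alone 9, 11, 3 and 3 members were called, beside 4.89, 4.27, 2.73 and 3.57% of all probe sets, and 2 of the 24 genes were called in all 4. Within batch 2 alone 26, 27, 13 and 8 members were called, beside 7.68, 7.29, 5.49 and 3.63% of all probe sets, and 8 of the 24 were called in all 4.

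With 1 array left out at a time, 5 calls were lost without 1 particular array: Col4a1 in siRNA-C without its replicate 3, Postn in siRNA-B without its replicate 4, Col12a1 and Col4a1 in siRNA-A without its replicates 5 and 3, and Lamb1 in scrambled without its replicate 2. The differences without those arrays were 0.36, 0.44, 0.45, 0.38 and 0.53 in that order, with limma adjusted p from 0.0512 to 0.0551. Other calls were lost in more than 1 such fit, with limma adjusted p up to 0.1. Col3a1, Col18a1 and Postn in siRNA-C were kept in 11, 13 and 7 of 17 such fits. In siRNA-B, Col1a2, Col4a1 and Col18a1 were kept in 12 of 15 and Col6a3 and Col12a1 in 6. In siRNA-A, Lum and Vcan were kept in 7 of 15, and in scrambled Col4a1, Fbln2 and Lox were kept in 10, 9 and 8 of 16. Every other call against Control was kept in every such fit.

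Genes around the matrix were read from lists that hold none of the members. As background for these lists and the marker lists below, 9.35, 9.01, 9.09 and 7.27% of all probe sets were called upward. Of 24 measured genes of TGF-beta and PDGF signalling, 17 rose and 1 fell in siRNA-C, 16 and 1 in siRNA-B, 17 and 1 in siRNA-A and 13 and 1 in scrambled (medians 0.41, 0.46, 0.45 and 0.34). Tgfbr3, the betaglycan co-receptor, rose by 1.19, 1.28, 1.29 and 0.96, and Tgfbi, a TGF-beta induced matrix protein, by 0.93, 0.98, 0.92 and 0.79. Smad7, an inhibitor of TGF-beta signalling, fell by 0.39, 0.47, 0.34 and 0.37.

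Of 23 genes of matrix breakdown, 14, 15, 11 and 10 rose and 1 gene fell in each comparison (medians 0.86, 0.87, 0.60 and 0.63). The list holds proteases and also genes that act on them, among them the metalloproteinase inhibitors Timp1 and Timp4. Only the largest called rises of each comparison are named next, so a group left out for a gene may have been called too. Mmp3, stromelysin-1, rose by 1.93 in siRNA-C, 2.29 in siRNA-B and 1.34 in scrambled. Adamts1, a protease of versican, rose by 1.85 in siRNA-C, 1.82 in siRNA-A and 1.08 in scrambled. In siRNA-B Plat, the tissue plasminogen activator, rose by 1.84, and in siRNA-A Adamts4, an aggrecanase, rose by 1.64. The one that fell, Timp4, is thus an inhibitor and not a protease. It fell by 1.13, 1.25, 0.97 and 0.99, while the members Timp2 and Timp3 rose.

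Of 25 matrix receptors, 11, 15, 12 and 11 rose (medians 0.37, 0.48, 0.30 and 0.27). Itga5, the fibronectin receptor chain, rose by 1.35, 1.33, 1.57 and 1.31. Of 19 other genes of collagen synthesis, 10, 11, 7 and 6 rose, with Plod1, another lysyl hydroxylase, at 0.77, 0.90, 0.88 and 0.78 and P4ha1, a prolyl hydroxylase subunit, at 0.67, 0.74, 0.60 and 0.73. None of 19 other collagens was called in any comparison (medians -0.07, -0.10, -0.08 and -0.01). Group medians of their mean level were 8.26 to 8.31 log2, beside 9.455 to 10.157 for the members. No measure of signal over background was used, so whether these other collagens were expressed is not known. Of 35 other matrix glycoproteins and proteoglycans, 17, 16, 12 and 9 rose, and 1, Smoc2, fell in scrambled, by 0.55. Mgp, which keeps soft tissue from calcifying, rose by 1.60 to 1.93 in the 4 comparisons.

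Markers of the cells that make matrix, and of cells that enter inflamed tissue, moved in the same comparisons. Of 15 fibroblast markers, 9, 8, 8 and 7 rose and 1 fell in each. Grem1, a BMP antagonist of subepithelial fibroblasts, rose by 2.12, 2.26, 1.72 and 1.71, and Gli1, a hedgehog target, fell by 0.39, 0.42, 0.42 and 0.35. All 11 smooth muscle markers rose in every comparison (medians 0.46, 0.43, 0.44 and 0.43). Neither the marker lists nor the lists around the matrix were read without the narrow arrays, 4 of which are Control. Of 12 endothelial markers 9, 9, 10 and 8 rose, and of 6 pericyte markers 4 rose in each.

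The macrophage list rose in 9, 9, 9 and 8 of 9 markers, with Cd68 higher by 2.03, 2.18, 1.91 and 1.87. Its mean level ran from 9.93 to 10.6 on siRNA-C arrays, 10.2 to 10.5 on siRNA-B, 9.94 to 10.6 on siRNA-A and 9.96 to 10.4 on scrambled arrays, against 8.57 to 9.28 on Control arrays. The mean of the matrix genes ran from 9.69 to 10.4, 9.95 to 10.3, 9.79 to 10.3 and 9.72 to 10.3 in the same groups, against 9.15 to 9.75 on Control arrays. The fibroblast list ran from 9.36 to 9.87, 9.40 to 9.78, 9.11 to 9.75 and 9.17 to 9.67, against 8.66 to 9.29. Of 7 neutrophil markers 6, 6, 6 and 4 rose, with S100a8, a neutrophil alarmin, higher by 2.81, 3.25, 2.55 and 2.04. Of 12 epithelial markers 1, 2, 2 and 2 rose and 1, 2, 0 and 0 fell, and their mean ran over 11.7 to 12.3 across all groups. Of 6 lymphocyte markers 1 rose in each and 1, 2, 2 and 2 fell, of 6 enteric neuron and glia markers 5, 5, 4 and 4 rose, of 5 adipocyte markers 1, 1, 1 and 2 rose, and none of 5 mesothelial markers passed. Of 9 squamous markers 5, 8, 0 and 0 rose. For these comparisons 9.35, 9.01, 9.09 and 7.27% of all probe sets were called upward, and 15.9, 14.8, 13.8 and 11.7% in either direction. Counts of 1 or 2 in lists this short are not read as results. The part that changed cell makeup has in the matrix differences was not tested.

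**Figure D3:**
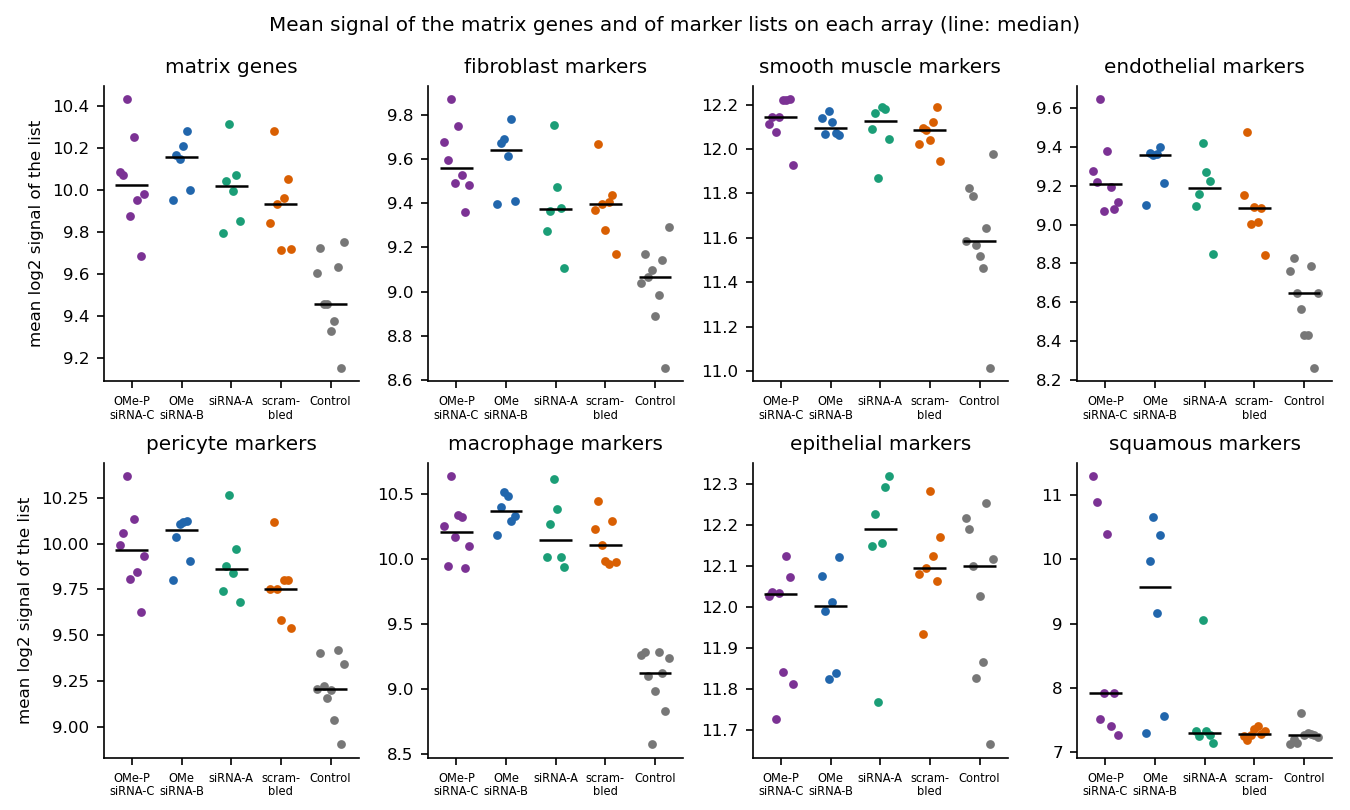
Mean log2 signal per array (points, with a line at each group median) of the matrix genes and of marker lists of fibroblasts, smooth muscle, endothelium, pericytes, macrophages, colon epithelium and squamous epithelium, by group from siRNA-C to Control. Macrophage means are lower on every Control array than on every dosed array, matrix means meet at the edge of the groups, and epithelial means overlap in all 5 groups.

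The second question was whether siRNAs with different chemistry, or directed at Tnf against scrambled, differed in matrix expression. The doses are not given in the sources used here, so these compare groups as labelled. In 6 comparisons among the 4 dosed groups, 0 members and 0 of 28853 probe sets passed in limma. At an unadjusted p under 0.05, members numbered 2 for siRNA-C over scrambled, 4 for siRNA-B over scrambled, 1 for siRNA-A over scrambled, 1 for siRNA-B over siRNA-A, 0 for siRNA-C over siRNA-A and 0 for siRNA-C over siRNA-B, where 2.9, 1.58, 1.08, 1.71, 3.47 and 0.256% of probe sets did.

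The unmodified siRNA-A differed from scrambled by a member median of 0.07 (range -0.12 to 0.33). Lama2 was the member with unadjusted p under 0.05, at 0.33. For siRNA-B, with O-methyl nucleotides, the median over scrambled was 0.16 (range -0.05 to 0.48), with Lox at 0.48, Plod2 at 0.43, Dcn at 0.31 and Fbln5 at 0.26. For siRNA-C, with O-methyl-propanediol nucleotides, the median over scrambled was 0.09 (range -0.05 to 0.47), with Loxl1 at 0.26 and Fbln5 at 0.22. All these had adjusted p over 0.05.

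The O-methyl form, siRNA-B, differed from siRNA-A by a median of 0.10 (range -0.12 to 0.39), with Col3a1 at 0.39. Squamous arrays numbered 3 in siRNA-C, 4 in siRNA-B, 1 in siRNA-A and 0 in scrambled. Chemistry and squamous signal are therefore not separated in these comparisons. The propanediol form differed from the O-methyl form by a median of -0.08 (range -0.20 to 0.06), with 3 of 44 estimates above 0 (58.4% of all probe sets), and siRNA-C differed from siRNA-A by 0.04 (range -0.20 to 0.28). Estimates above 0 numbered 36, 41 and 35 of 44 for siRNA-C, siRNA-B and siRNA-A over scrambled. They numbered 37 for siRNA-B over siRNA-A and 28 for siRNA-C over siRNA-A. A lean to one side was therefore not particular to the propanediol form. The 95% interval lay within 0.5 log2 of 0 for 37 members in siRNA-C over scrambled, 30 in siRNA-B over scrambled, 35 in siRNA-A over scrambled, 32 in siRNA-B over siRNA-A, 38 in siRNA-C over siRNA-A and 38 in siRNA-C over siRNA-B. It lay within 1 log2 for at least 43 of 44 in each. Smaller differences between the siRNAs cannot be told from 0 with this many arrays.

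**Figure D4:**
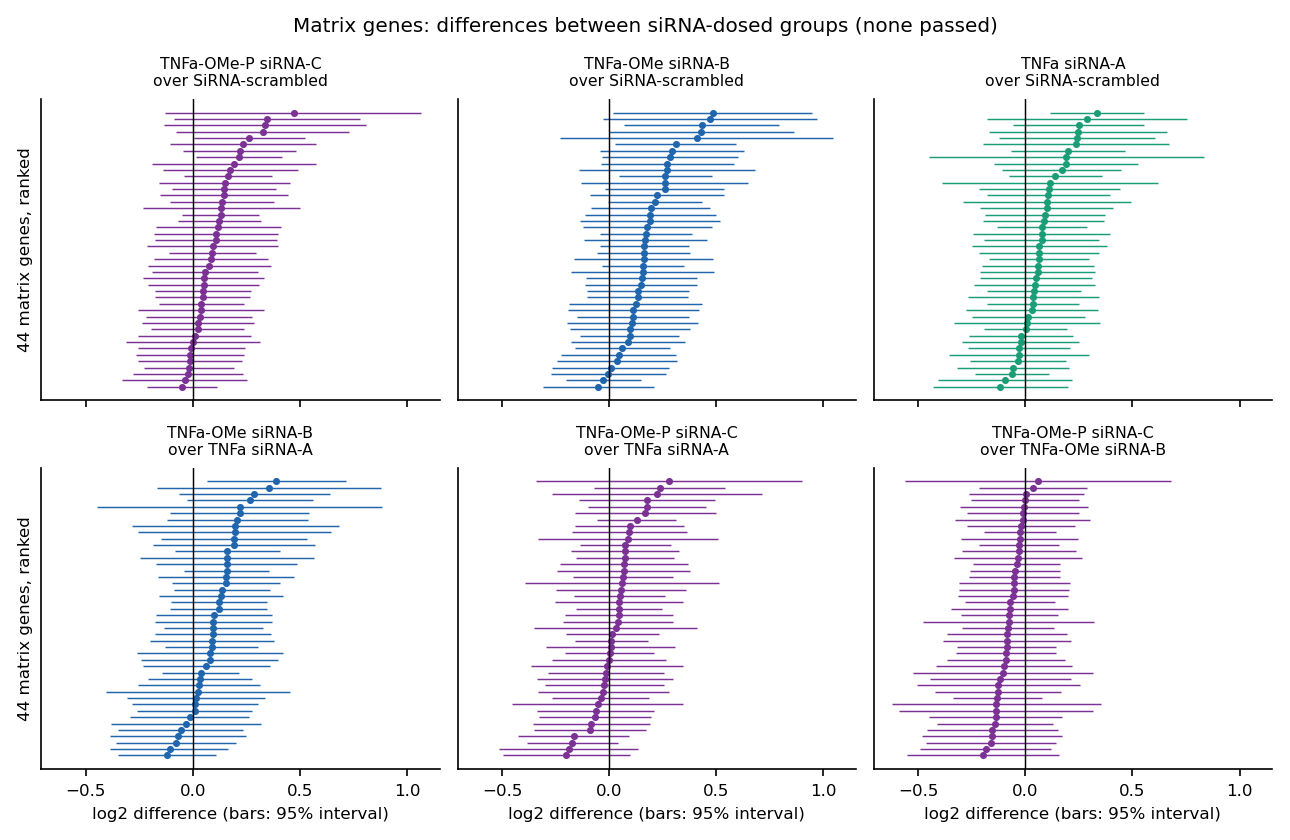
Difference in log2 units between dosed groups for the 44 matrix genes, with 1 panel per comparison, 1 point per gene in order of size and bars for the 95% interval; the panels show siRNA-C, siRNA-B and siRNA-A over scrambled and the 3 pairs among them. No gene passed the adjusted threshold, and all points lie between -0.20 and 0.48.

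The third question set the matrix genes against the labelled colon weight to length ratio, a gross measure of swelling and thickening. It was 2.56 ± 0.215 mg per mm in siRNA-C (SD, n = 8), 2.88 ± 0.103 in siRNA-B (n = 6), 2.85 ± 0.164 in siRNA-A (n = 6) and 2.76 ± 0.225 in scrambled (n = 7), against 2.18 ± 0.130 in Control (n = 9). Within the 27 dosed arrays, with group and batch terms, no member's slope on the ratio passed in limma, nor did any probe set (0%). At an unadjusted p under 0.05, 3 of 44 members had a slope, beside 7.18% of probe sets.

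As estimates most slopes were positive, 39 of 44 above 0 (57.2% of all probe sets), with a median of 0.29 log2 per mg per mm against 0.05 over all probe sets. The 5 fibrillar collagens had a median slope of 0.52. The 5 smallest p-values belonged to Col1a2 (0.51 ± 0.22, SE), Fbln2 (0.56 ± 0.24), Col16a1 (0.46 ± 0.22), Col5a2 (0.52 ± 0.25) and Sparc (0.31 ± 0.15), all with a limma adjusted p of 0.605.

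For colon length the median slope was -0.09 (0.02 over all probe sets), and the 3 members with unadjusted p under 0.05 were Fbln1 (-0.24), Thbs2 (0.24) and Serpinh1 (-0.33), beside 2.43% of probe sets. Length is used as labelled, and its unit is not settled, because weight over length in the labelled units does not give the labelled ratio. With length read as centimetres, the labelled ratio follows within 0.01 mg per mm for 33 of 36 samples. The labelled value was 2.62 where 2.79 follows in siRNA-C replicate 3, 2.82 where 2.80 follows in siRNA-B replicate 1, and 2.76 where 2.59 follows in scrambled replicate 7. For myeloperoxidase activity, an enzyme of neutrophils, the median slope was 0.09 (-0.01 over all), and the 4 members with unadjusted p under 0.05 were Col14a1 (-0.32), Timp3 (0.30), Tnc (0.57) and Thbs1 (0.95), beside 5.13% of probe sets. None passed the adjusted threshold for either measure.

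**Figure D5:**
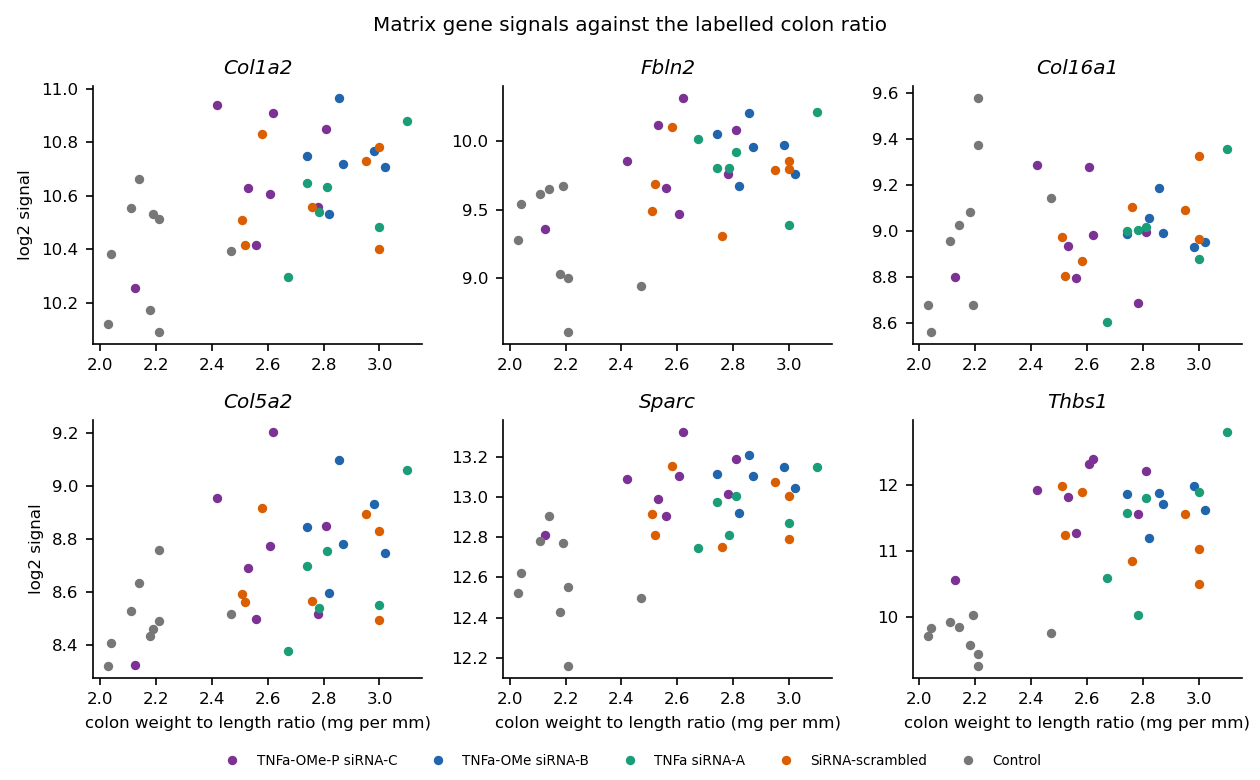
Log2 signal of Col1a2, Fbln2, Col16a1, Col5a2, Sparc and Thbs1 against the labelled colon weight to length ratio in mg per mm, 1 point per array, marked by group from siRNA-C to Control. Control arrays lie at ratios of 2.03 to 2.47, and dosed arrays at 2.13 to 3.1.

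The slope on the ratio was also compared between dosed and Control arrays. It differed for 4 members, against a background of 39.5% of all probe sets, so the share of members is below that of all probe sets. The dosed slope minus the Control slope was 1.97 ± 0.61 for Fbln1 (limma adjusted p 0.0319), 2.51 ± 0.94 for Lamb1 (0.0403), 2.23 ± 0.89 for Plod2 (0.0477) and -1.54 ± 0.61 for Col5a1 (0.0455). The slopes in dosed arrays were 0.42, 0.64, 0.01 and 0.28, against -1.56, -1.86, -2.22 and 1.81 in Control. Without the narrow arrays, 4 of which are Control, no member and no other probe set passed in limma. Without Control replicate 6, whose ratio of 2.47 is the highest of the group, 10 members passed beside 63.4% of all probe sets, so here too the members' share is below that of all probe sets, and the test says nothing particular about matrix genes.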

How the data were processed

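Total RNA from 36 mouse distal colon samples was amplified, labelled with biotin and hybridised to Affymetrix arrays, per the labels' protocols. The authors deposited log2 signals of 28853 probe sets, made with Partek and RMA per the submitters' processing notes, which give no versions. Whether batch effects were removed, and the genome build of the probes, are not given in the sources used here. Probe sets were named from the platform annotation: 21789 carry 1 gene, 1621 several and 5443 none. Groups were taken from the sample titles. The members, pathway lists and marker lists were chosen with earlier results of these data known.

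In limma 3.58.1 (R 4.3.3), each probe set was modelled on group plus terms for 3 amplification and 2 hybridization batches over the 36 arrays, and variances were moderated with a trend on mean signal. Every batch held arrays of all 5 groups. All tests were two-sided, and p-values were adjusted by Benjamini-Hochberg across 28853 probe sets at a threshold of 0.05. The SE of the scrambled difference from Control had a median of 0.108 log2 with 28 residual degrees of freedom, and the number of arrays limits precision. No measure of signal over background was used. Slopes on colon ratio, length and myeloperoxidase activity used the 27 dosed arrays. All members may be named. Values are given for members called in most comparisons and, by role and list, for those with the largest changes called.

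The alternatives were other batch terms, single batches, only the groups compared, a replicate block, array weights, moderation without trend, quantile normalization, median centring, averaged probe sets, a recomputed colon ratio, dim probe sets left out, a minimum change of 0.5, array SD as a covariate, and narrow or single arrays left out. Leaving out the squamous arrays, and leaving Control replicate 6 out of the slope difference, were added after seeing the data. The fit was tested on simulated data with planted changes, drawn independently for each probe set and array. Those data held no batch effects, narrow arrays or linked probe sets, so they do not test the fit against these. Python 3.11.15, pandas 2.3.3, NumPy 2.4.6 and matplotlib 3.10.9 read the files, searched the promoters and drew the plots.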

Additional observations from a re-analysis of the deposited data

Results flagged for a closer look

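Within single groups of 6 to 9 samples, 1 sample stood apart from the rest by the gap to its nearest neighbour (Dixon's test at 95%) in 11 of 225 sets of values tested, which is 4.889% and near the 1 in 20 that chance gives. In siRNA-B, Fn1 was lowest in replicate 6 at 11.90 and Col4a2 highest in replicate 5 at 10.11. In siRNA-A, Col3a1 was lowest in replicate 4 at 9.80, Col12a1 lowest in replicate 1 at 8.13 and Col4a2 highest in replicate 3 at 10.25. Scrambled replicate 2 was highest for 3 genes, Nid2 at 8.42, Lama4 at 10.53 and Plod2 at 9.32. In Control, Lox was lowest in replicate 3 at 6.40, Col18a1 highest in replicate 4 at 9.42, and the colon ratio highest in replicate 6 at 2.47 mg per mm.

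The slope on colon ratio differed between dosed and Control arrays for Fbln1 (1.97), Lamb1 (2.51), Plod2 (2.23) and Col5a1 (-1.54), as a tested difference between slopes, where 39.5% of all probe sets also passed. No member passed without the narrow arrays or with array SD as a covariate, where 0% of all probe sets passed in each. Beyond these settings the part of array spread was not tested.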

How the results depend on the processing

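Called members numbered 31, 34, 28 and 24 in siRNA-C, siRNA-B, siRNA-A and scrambled over Control. Within hybridization batch 1 they were 9, 11, 3 and 3 (4.89, 4.27, 2.73 and 3.57% of all probe sets), and within batch 2 siRNA-A gave 13 (5.49%) and scrambled 8 (3.63%). Within amplification batch 1 they were 19, 2, 1 and 0 (30.5, 8, 6.78 and 4.09%), and within batch 3 they were 0, 1, 1 and 0 (0.201, 0.7, 0.381 and 0.187%), where groups hold 1 to 3 arrays and a lone array is assumed to vary like the other groups. For siRNA-A, leaving out the narrow arrays gave 18 (20.9%), and fitting only its own arrays and Control's gave 12 (4.58%). For siRNA-B, 5 were called without the squamous arrays (3.78%). With array weights, 36 members rose and 1 fell in siRNA-C, 38 and 1 in siRNA-B, 24 and 0 in siRNA-A and 26 and 1 in scrambled. The share of all probe sets called there was 47.1, 47.7, 27.5 and 56.4%, so in scrambled the share of members was close to it. Under the same weights, slopes on the ratio gave 7 called members (3.17%) and slopes on myeloperoxidase activity 3 (22.9%), against 0 without them. The 4 slope differences (39.5%) became 0 without narrow arrays or with array SD as a covariate (0% each), 2 without batch terms (15.3%), and 10 without Control replicate 6 (63.4%), so these counts moved with the share of all probe sets. Within amplification batch 1 the sign turned for Col12a1 in siRNA-A (-0.031) and Postn in siRNA-C (-0.159) and siRNA-B (-0.033), where the median of all probe sets was 0.13, 0.10, 0.08 and 0.08. Of 24 genes called in all 4, 16 remained without narrow arrays, 5 without squamous arrays, 11 with only the groups compared, 2 within hybridization batch 1, 8 within batch 2, 20 within amplification batch 2 and 0 within amplification batches 1 and 3. Settings on single batches hold fewer arrays, and otherwise the cause was not tested.

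With 1 array left out in turn, counts ran 28 to 36, 29 to 37, 25 to 30 and 20 to 27, and comparisons among dosed groups and slopes within dosed arrays stayed at 0 to 0. With the replicate number as a block the counts were 33, 34, 27 and 24, and 2 slope differences passed (31.9% of all probe sets). Of 64 pairs with the same number, 32 correlated over 0.1 (range -0.697 to 0.868) and in 0 comparisons did every pair, so the numbers were not taken as pairs. Batch and array effects were left in the correlated values, so a pairing is not excluded. Over called genes and settings, direction and call were kept 1572 times, the call was lost 527 times and the sign turned 3 times.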
